A study of Mus musculus with 2 samples.

Results

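The 53 genes described here drive cells through the division cycle or hold them out of it, and their promoters were examined for DNase I hypersensitive sites (DHS) in splenic B cells that had not been stimulated to divide. They were listed by name for their roles in the cycle. All 53 were found among 22350 protein-coding genes on chromosomes 1 to 19 and X, and comprised 24 genes of the G1/S transition, 23 genes of mitosis and 6 inhibitors. The windows from 5 kb upstream to 2 kb downstream of their annotated transcription start sites (TSSs) held 100 of the 47542 DHS in the list. In these cells 52 of the 53 genes had a promoter DHS, the exception being the inhibitor gene Cdkn2d.

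The cells were B cells from the spleens of 8 weeks old C57/Bl6 mice with an intact Trp53 gene (Trp53+/+) and mock treatment, enriched on B220 MicroBeads by magnetic sorting. DNase I, an enzyme with a preference for DNA not wrapped around nucleosomes, was applied to the nuclei, and the DNA fragments it released were sequenced. The series comprised 1 DNaseI library and 1 input library from cells with the same description. The number of animals, whether they were pooled, and their sex were not stated for these libraries, and B220 does not tell follicular from other splenic B cells. There was no second condition and no replicate, so no test was possible, and all values describe 1 library. Intervals below are exact (Clopper-Pearson) 95% binomial intervals and cover counting error only.

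The DHS had a median width of 760 bp and a median peak score of 32.6, with scores from 5.05 to 619. The score is the value that the authors' peak caller gave each peak. Its scale was not stated, so it served only to rank DHS within the list. The list holds no read counts, sequencing depth was therefore unknown, and a missing DHS means only that none was called. All 8 B cell markers examined had a DHS over a TSS, against 0 of 8 T cell markers. Of the T cell markers, Tcf7 alone had a promoter DHS, away from its TSSs. In gene bodies outside the promoter windows, Cd3d had 1 DHS (122.4), Zap70 3 (up to 34.65) and Tcf7 3 (up to 22.3). Promoter DHS were called at 2 of 6 myeloid markers (Itgam and Cd14). Whether DNA of other cells added to the DHS of cell cycle genes was not tested.

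Progress through the cycle depends on cyclins and the cyclin-dependent kinases (CDKs) they activate. D cyclins with CDK4 or CDK6, then cyclin E with CDK2, phosphorylate the pocket proteins (Rb1, Rbl1 and Rbl2) and so release E2F factors, which switch on genes for DNA replication. Cyclins A and B with CDK1 drive entry into mitosis, where spindle kinases, kinesins and checkpoint proteins separate the chromosomes. In resting cells CDK inhibitors restrain the kinases, and the DREAM complex, built around Rbl1 or Rbl2 with E2f4 or E2f5, represses many of these genes at their promoters. DREAM and its activating counterparts reach G1/S genes mostly through E2F sites, and mitotic genes mostly through the cell cycle homology region (CHR), often beside CCAAT boxes that bind NF-Y. Naive splenic B cells are mostly out of cycle. A DHS at a promoter shows that the DNA was accessible, and these libraries held no measure of transcription.

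Promoter sequences of 6 members introduce the features compared below. Each is the 200 bases before the most 5′ protein-coding TSS of the gene, in mm9 and read 5′ to 3′ on the strand of the gene. Capitals mark E2F words (TTTGGCGC or TTTCGCGC), CHR words (TTTGAA) and CCAAT boxes on either strand, so that GCGCCAAA, GCGCGAAA, TTCAAA and ATTGG are the same words on the opposite strand. Overlapping words run together.
The first group are G1/S genes, shown because each carried an E2F word inside a DHS:
Mcm5 (chr8:77633227-77633426, plus strand): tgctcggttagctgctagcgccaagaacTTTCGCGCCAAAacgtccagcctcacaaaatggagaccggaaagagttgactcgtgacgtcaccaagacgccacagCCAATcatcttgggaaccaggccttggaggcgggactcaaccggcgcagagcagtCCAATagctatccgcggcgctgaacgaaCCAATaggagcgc
Mcm6 (chr1:130256234-130256433, minus strand): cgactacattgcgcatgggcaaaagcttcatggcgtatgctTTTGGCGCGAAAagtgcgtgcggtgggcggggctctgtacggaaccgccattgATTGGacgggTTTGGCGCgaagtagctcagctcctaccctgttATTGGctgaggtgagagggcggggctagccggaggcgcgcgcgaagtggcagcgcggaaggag
A pair of mitotic genes follows, chosen for holding a CHR word with CCAAT boxes and for lying at opposite ends of the mitotic scores:
Aurkb (chr11:68858949-68859148, plus strand): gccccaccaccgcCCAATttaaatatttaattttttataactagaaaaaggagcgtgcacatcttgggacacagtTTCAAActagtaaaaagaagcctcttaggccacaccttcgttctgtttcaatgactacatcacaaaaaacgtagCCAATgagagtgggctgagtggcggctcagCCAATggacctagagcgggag
Ccnb2 (chr9:70269362-70269561, minus strand): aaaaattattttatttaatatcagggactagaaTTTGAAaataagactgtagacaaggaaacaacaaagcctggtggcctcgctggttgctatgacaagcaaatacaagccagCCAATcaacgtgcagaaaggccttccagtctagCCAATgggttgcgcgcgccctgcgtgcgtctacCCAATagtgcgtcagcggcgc
The last are inhibitor genes, Rbl1 with an E2F word, and Cdkn2d as the only member with no promoter DHS:
Rbl1 (chr2:157030249-157030448, minus strand): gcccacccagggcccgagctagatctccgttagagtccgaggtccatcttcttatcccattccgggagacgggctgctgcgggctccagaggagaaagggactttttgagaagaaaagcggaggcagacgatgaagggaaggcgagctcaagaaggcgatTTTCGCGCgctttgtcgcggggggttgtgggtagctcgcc
Cdkn2d (chr9:21095654-21095853, minus strand): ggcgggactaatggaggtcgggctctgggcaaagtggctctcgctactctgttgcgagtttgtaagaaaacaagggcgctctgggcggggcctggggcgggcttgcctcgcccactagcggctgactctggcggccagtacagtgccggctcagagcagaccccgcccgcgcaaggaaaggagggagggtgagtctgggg
All 200 bases lay inside a DHS in the first 5 sequences, and none of the 200 did at Cdkn2d.

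The first question was whether genes of the division cycle have accessible promoters in cells that mostly do not divide. A promoter DHS was called at 52 of 53 members (98.1%, interval 89.9 to 99.9%), against 57% of all protein-coding genes. The share was 24 of 24 among G1/S genes (lower bound 85.8%), 23 of 23 among mitosis genes (lower bound 85.2%) and 5 of 6 among inhibitors (83.3%, interval 35.9 to 99.6%). These intervals overlap, so the 3 classes could not be separated by whether a DHS was called. A further 75 genes of replication, mitosis, the DREAM complex and proliferation brakes, none of them members, all had a promoter DHS (lower bound 95.2%).

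Promoters rich in CpG dinucleotides are accessible in most tissues, so the members were set beside genes of like promoter class. The CpG-rich class held genes with at least 55% GC and a CpG ratio (CpGs observed over those expected from base composition) of at least 0.6 in the 1000 bp around any TSS. By this rule 18 of 24 G1/S genes, 13 of 23 mitosis genes and 6 of 6 inhibitors were CpG-rich. Among CpG-rich genes a promoter DHS was called at 36 of 37 members (97.3%, interval 85.8 to 99.9%) and at 85.1% of the 9817 protein-coding genes of the class. The class value lay just under the interval of the members. All 16 CpG-poor members had a promoter DHS (lower bound 79.4%), against 35.1% of the 12533 CpG-poor protein-coding genes. Those 16 were not typical of that class. Their CpG ratio ran from 0.522 to 0.917, and 12 of the 16 missed the CpG-rich class on GC content. CpG-poor protein-coding genes with a ratio of at least 0.5, a limit set after these values were seen, had a promoter DHS in 75.3% of cases (2315 of 3076), a share still below the lower bound of the 16. At a ratio under 0.5, where no member lay, the share was 22%.

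A stricter measure asked whether a DHS covered an annotated TSS itself. This held for 47 of 53 members (88.7%, interval 76.97 to 95.73%), against 46.6% of all protein-coding genes and 74.2% of CpG-rich ones. It held for 21 of 24 G1/S genes, 22 of 23 mitosis genes and 4 of 6 inhibitors. CpG-rich and CpG-poor members were alike in this, with 33 of 37 (89.2%) and 14 of 16 (87.5%), while CpG-poor protein-coding genes stood at 25%. For CpG-poor genes with a CpG ratio of at least 0.5 the share was 67%, which lies inside the interval of the 16 (61.6 to 98.4%). Besides Cdkn2d, the members without a covered TSS were Ccnd2, E2f1, Rrm1, Foxm1 and Rb1. Each of those 5 had a DHS upstream of a TSS, and 52 of 53 members had a DHS within 1 kb of one. That held for 53.7% of all, 84% of CpG-rich and 29.9% of CpG-poor protein-coding genes. A promoter DHS at or above the median score of the list was found at 51 of 53 members, against 50.3% of all, 78.7% of CpG-rich and 28% of CpG-poor genes.

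**Figure D1:**
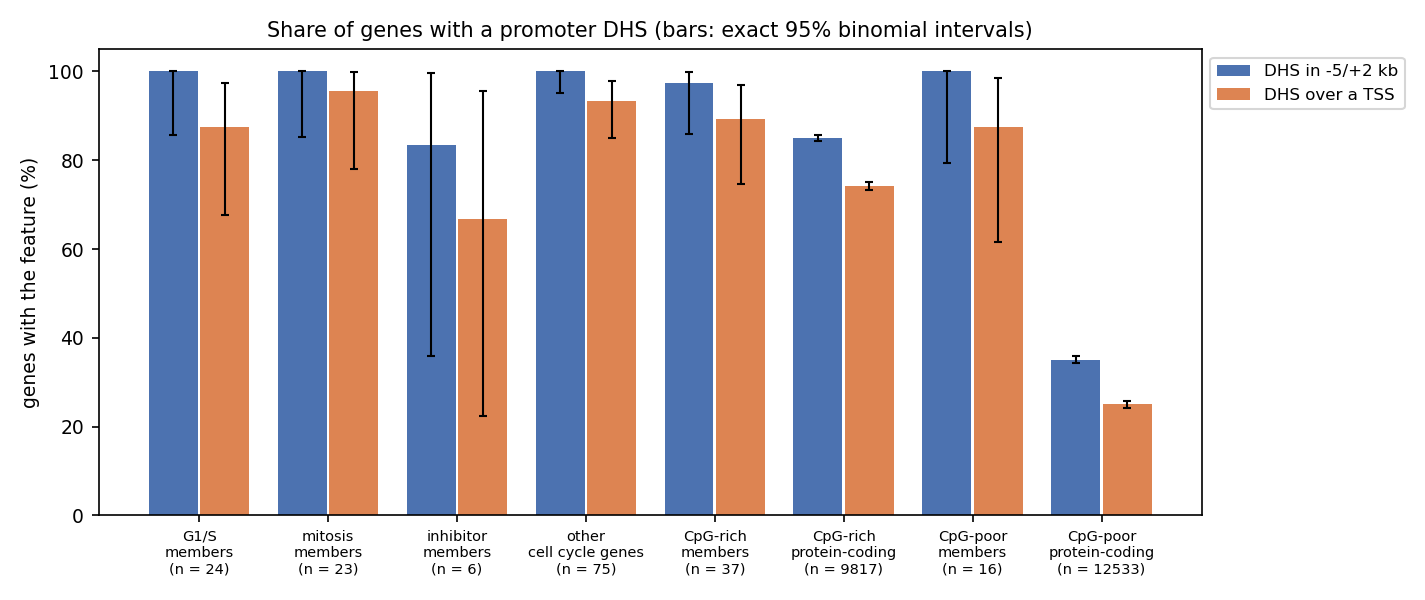
Share of genes (%) with a DHS from 5 kb upstream to 2 kb downstream of a TSS (blue) and with a DHS over a TSS (orange), for the member classes, the 75 other cell cycle genes and protein-coding genes by CpG class. Error bars are exact 95% binomial intervals, and n is the number of genes. The 16 CpG-poor members stand at 100% and 87.5%, above CpG-poor protein-coding genes at 35.1% and 25%. That class includes genes with a CpG ratio under 0.5, where no member lies, and its genes with a higher ratio (not drawn) stand at 75.3% and 67%.

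The height of the strongest promoter DHS gave less separation from other genes than its presence. The median top score was 118.0 over the 52 members with a DHS (interval of the median 100.7 to 132.4), and 113.8 over CpG-rich protein-coding genes with one. It was 127.7 for G1/S genes (98.4 to 204.6), 116.4 for mitosis genes (83.2 to 128.3) and 111.4 for the 5 inhibitors, with intervals that overlap. The quartiles of CpG-rich genes were 74.8 and 163.7. Of the 24 G1/S genes 8 lay above the upper quartile, 12 between the quartiles and 4 below. Of the 23 mitosis genes 1 lay above, 18 between and 4 below, though 10 of them were CpG-poor. Set beside genes of their own CpG class, 14 of 24 G1/S genes and 16 of 23 mitosis genes lay above the class median. Top scores of G1/S genes ran from 28.0 at Tyms to 399 at E2f2, which are percentiles 44.3 and 99.8 of all DHS in the list.

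**Figure D2:**
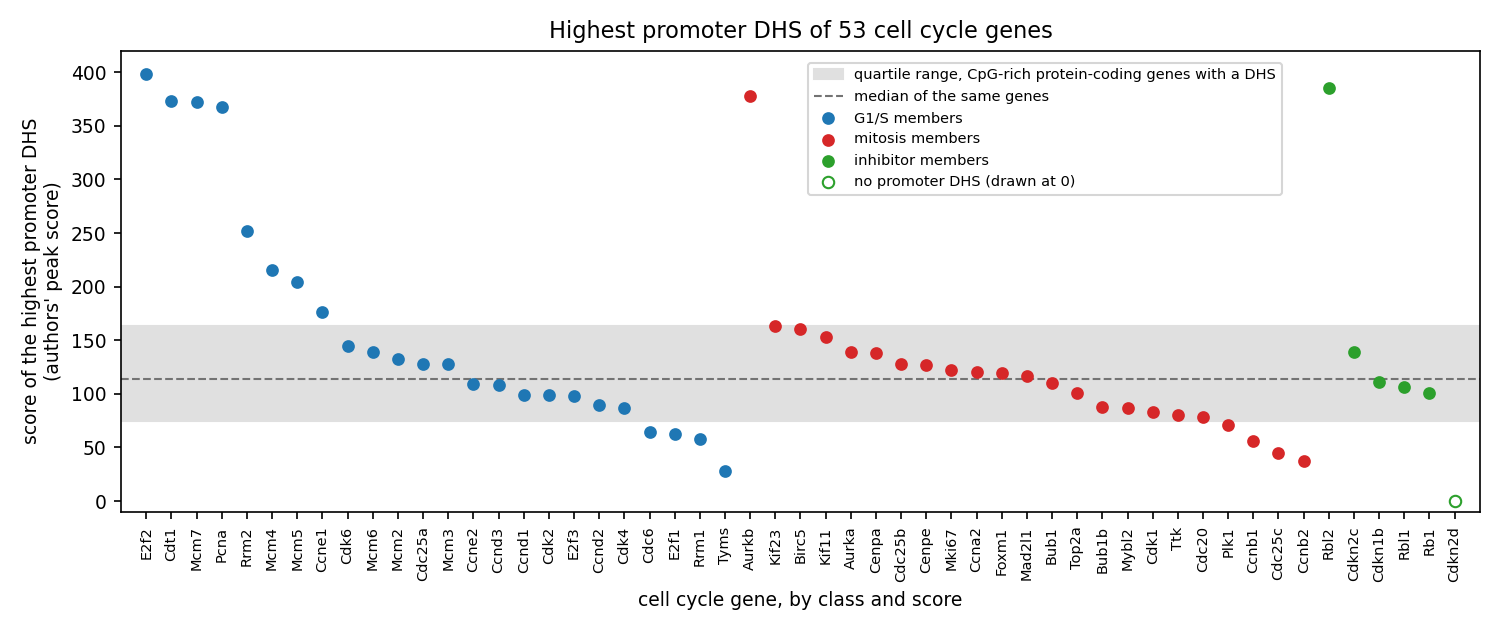
Peak score of the strongest promoter DHS (y axis, the authors' score, linear) for each of the 53 members, ordered by class and score. The band is the quartile range and the dashed line the median of CpG-rich protein-coding genes with a DHS. The 6 highest are E2f2, Rbl2, Aurkb, Cdt1, Mcm7 and Pcna, and Cdkn2d without a DHS is drawn as an open circle at 0.

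Among G1/S genes, the D cyclins and their kinases, which link growth signals to the cycle, had the most DHS but middling scores. Ccnd1 had 5 promoter DHS in a window of 8673 bp. Of these, 1 covered an inner TSS with a score of 99.4. It lay 1444 to 2785 bp downstream of the most 5′ TSS, which no DHS covered. The others scored 19.8 to 31.1, with 19.8 at the DHS that began 90 bp downstream of the most 5′ TSS. Ccnd2 had 4, which covered 83.4% of its window. The wide DHS of 3571 bp that began inside the gene (chr6:127097485-127101055) scored 89.4, and that upstream of the TSS (chr6:127101253-127103034) scored 84.0. The only annotated TSS of Ccnd2, at position 127101066, fell in the 197 bp between them. The wide DHS was centred nearer to a TSS of the noncoding gene 9330179D12Rik than to that of Ccnd2. At Ccnd3 the highest DHS, 108.3, was centred 2818 bp upstream and nearer to the TSS of Taf8. DHS over the TSSs of Ccnd3 itself scored 61.5 and 80.8, and 9 more lay in the gene outside the window, up to 198.7. Cdk4 had 4 DHS, with 86.9 over a TSS, 43.7 just upstream, and 71.6 and 21.5 nearer to March9. Cdk6 had a single promoter DHS of 3926 bp that scored 144.9, and 13 more in its long gene body, up to 112.5.

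Cyclin E and CDK2 commit the cell to S phase. Ccne1 scored 176.4 and Ccne2 109.0, with 3 DHS each. Cdk2, the kinase, scored 99.1. Cdc25a, the phosphatase that activates it, scored 127.8. Both Ccne1 and Ccne2 had a TSS in a narrow gap between DHS, of 146 and 74 bp.

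The activator E2Fs, which switch on the replication genes, differed in their top scores, from percentile 71.97 of the list at E2f1 to 99.8 at E2f2. E2f2 had the highest score of all members, 399, at a DHS of 5163 bp (chr4:135732668-135737830) that covered an inner TSS. The DHS at its most 5′ TSS (chr4:135727600-135728562) scored 49.4, and another nearby scored 38.9. E2f3 scored 98.4 and 83.3. E2f1 had 3 DHS of 62.9, 31.9 and 28.5, none over its TSSs, the highest centred 460 bp upstream (chr2:154395744-154396432). Counting the DHS at the 5′ end only, E2f2 thus lay below E2f1 and E2f3, and its rank came from the inner start.

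Origin licensing and the replication fork held 5 of the 8 G1/S scores above the upper quartile of CpG-rich genes. Cdt1, the loading factor of the replicative helicase, had 1 DHS of 373 over its only annotated TSS (chr8:125091038-125093093). The subunits of that helicase, Mcm2 to Mcm7, each had a DHS over a TSS. Their top scores were 132.4 at Mcm2, 127.6 at Mcm3, 215.9 at Mcm4, 204.6 at Mcm5, 139.0 at Mcm6 and 373 at Mcm7. The 6 values were above the median of CpG-rich genes, though the value of Mcm2 belonged to a DHS nearer to Tpra1, and the DHS over the TSS of Mcm2 scored 92.7. Mcm4 and Mcm7 start close to a gene on the opposite strand, Prkdc at 466 bp and Ap4m1 at 160 bp, and share their DHS with it. The share of that DHS due to either gene cannot be told apart. Pcna, the sliding clamp of the polymerases, scored 368. Cdc6, which loads the helicase with Cdt1, was unlike them, with 5 DHS of 12.3 to 64.8 in a window of 14352 bp.

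The genes of nucleotide supply lay at both ends. Rrm2, the small subunit of ribonucleotide reductase, scored 252.0 at a single DHS. Rrm1, the large subunit, had DHS of 57.5 and 39.4 on either side of its only TSS, which lay in a gap of 57 bp. Tyms, which makes thymidylate, had the lowest top score of the 52 members, 28.0 at 1 DHS of 794 bp over a TSS. It was the only one whose highest promoter DHS fell under the median score of the whole list.

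Among the genes of mitosis, those for entry included the 3 lowest scores. Ccna2 scored 120.3, and Cdk1, the mitotic kinase, 83.2. The B cyclins scored 56.1 at Ccnb1 and 37.1 at Ccnb2, each with a single DHS over a TSS. Cdc25c, a phosphatase that activates CDK1, had DHS of 44.9 and 40.3, and the first was nearer to 2010110K18Rik. Ccnb2, Cdc25c and Ccnb1 were the 3 lowest of the mitosis class. Cdc25b, of the same family as Cdc25c, scored 128.3 at a DHS inside the gene that covered none of its TSSs. The DHS over its most 5′ TSS scored 77.6. The activators of mitotic genes, Foxm1 and Mybl2, scored 119.7 and 87.3. The Foxm1 DHS (chr6:128312093-128312757) ended short of its TSSs, with its centre 560 bp upstream, and was nearer to 5930416I19Rik, which starts 56 bp away on the opposite strand.

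Aurkb and Birc5, both of the chromosomal passenger complex that corrects chromosome attachment, were among the 3 highest of the class. At Aurkb a DHS of 377 (chr11:68852957-68855399) was centred 4971 bp upstream, and the DHS over its TSS (chr11:68858810-68860033) scored 180.5. No annotated TSS of another gene was nearer to the upstream DHS than that of Aurkb. Limited to 1 kb around a TSS, Aurkb still led the class with 180.5. Birc5 scored 160.8 upstream of a TSS that lay in a gap of 182 bp. Aurka, which builds the spindle poles, scored 139.5 at a DHS shared with Cstf1, whose TSS lies 146 bp away. Plk1, which acts across mitosis, scored 71.2.

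Genes of the spindle checkpoint ranged from 78.2 to 116.4. Mad2l1 was at 116.4, Bub1 at 109.7, Bub1b at 87.7, Ttk at 79.9 and the activator of the anaphase-promoting complex Cdc20 at 78.2. Bub1b also held 7 DHS in its body, up to 202.9. The kinesins and centromere genes lay close together, with 163.0 at Kif23, 152.7 at Kif11, 138.6 at the centromeric histone gene Cenpa and 126.9 at Cenpe. Top2a, the topoisomerase that untangles chromosomes, scored 100.7, and Mki67, which encodes the proliferation antigen Ki-67, scored 122.0. The highest DHS of Mki67 was centred 840 bp upstream, and that over its TSS scored 43.4. With 1 library, the order of genes as close as these has no replicate check.

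The top scores of the inhibitors lay within the range of the genes they restrain. The highest was that of Rbl2, the main pocket protein of resting cells, with 386 at 1 DHS. Rbl1 scored 106.1 at 1 DHS. Rb1 had 4 DHS in a window of 35186 bp, the longest of the members, with 6 annotated TSSs. The highest, 101.2, was nearer to Lpar6, a gene inside an intron of Rb1. Near its 5′ end Rb1 had DHS of 90.2 and 53.5 that left a gap of 464 bp with a TSS in it, and the last of the 4 scored 8.05. Cdkn1b, the main inhibitor of cyclin E with CDK2, had 3 DHS that covered 76.1% of its window, led by 111.4 over 3313 bp. Of the inhibitors of CDK4 and CDK6, Cdkn2c scored 139.3 and Cdkn2d had none.

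Cdkn2d (ENSMUSG00000066860.6, chr9:21092907-21095653, minus strand) was CpG-rich, with 63.3% GC and a CpG ratio of 0.649. The nearest DHS on its downstream side was weak, with a score of 11.7, lay 3863 bp from the TSS and was closest to Kri1. On its upstream side the next DHS, 87.2, lay 17498 bp away, nearest to Ap1m2. It was the only CpG-rich member among 37 without a promoter DHS, in a class where 85.1% of genes had one. Of the 75 other cell cycle genes, 5 were chosen for mention after their values were seen. The CDK inhibitor genes scored 24.4 at Cdkn1c, 34.4 at Cdkn2a and 158.4 at Cdkn2b. Over all 75 the top scores ran from 10.5 at Tfdp1, a partner of the E2Fs, to 446.8 at Tob1, a brake on proliferation.

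Members differed in how many DHS they had. A single promoter DHS was found at 25 members and at least 2 at 27 (50.9%), against 47.5% of CpG-rich, 15.6% of CpG-poor and 29.6% of all protein-coding genes. At least 2 were found at 15 of 24 G1/S genes (62.5%, interval 40.6 to 81.2%) and at 10 of 23 mitosis genes (43.5%, interval 23.2 to 65.5%). Those intervals overlap. Of the 55 DHS of G1/S genes, 24 covered a TSS, and 21 lay upstream and 10 downstream of the nearest TSS of the gene itself. Of the 35 DHS of mitosis genes the numbers were 23, 12 and 0. The length of the window covered by DHS was also compared. The median was 2166 bp at G1/S genes (interval 1819 to 3443 bp) and 1563 bp at mitosis genes (1466 to 1756 bp). The intervals did not overlap, and the 1894 bp of CpG-rich genes lay inside the first and above the second. CpG-poor genes were 6 of the 24 and 10 of the 23, and these lengths are not split by CpG class. As a share of the window, covered length was 26.6% (19.5 to 39.6%) at G1/S genes and 14.4% (11.9 to 21.9%) at mitosis genes. The intervals of these shares did overlap. By role the median was 3948 bp at the D cyclins with Cdk4 and Cdk6, 2056 bp at the genes of licensing and fork, and 1558 bp at those for entry into mitosis. The medians of annotated TSSs were 2 and 4 and those of window length 8018 and 11920 bp, with intervals that overlap in both measures. Over all 100 DHS, those over a TSS had a median score of 99.4, against 56.0 upstream and 38.9 downstream. The order held for G1/S genes (104.2, 54.6 and 34.0) but not for mitosis genes. The 12 upstream DHS of mitosis genes had a median of 105.6, and their 23 DHS over a TSS one of 83.2. Of those 12, 3 were nearer to a TSS of another gene, against 5 of the 21 upstream DHS of G1/S genes. The 12 also included the DHS of 128.3 inside Cdc25b, which lay upstream of inner TSSs only.

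**Figure D3:**
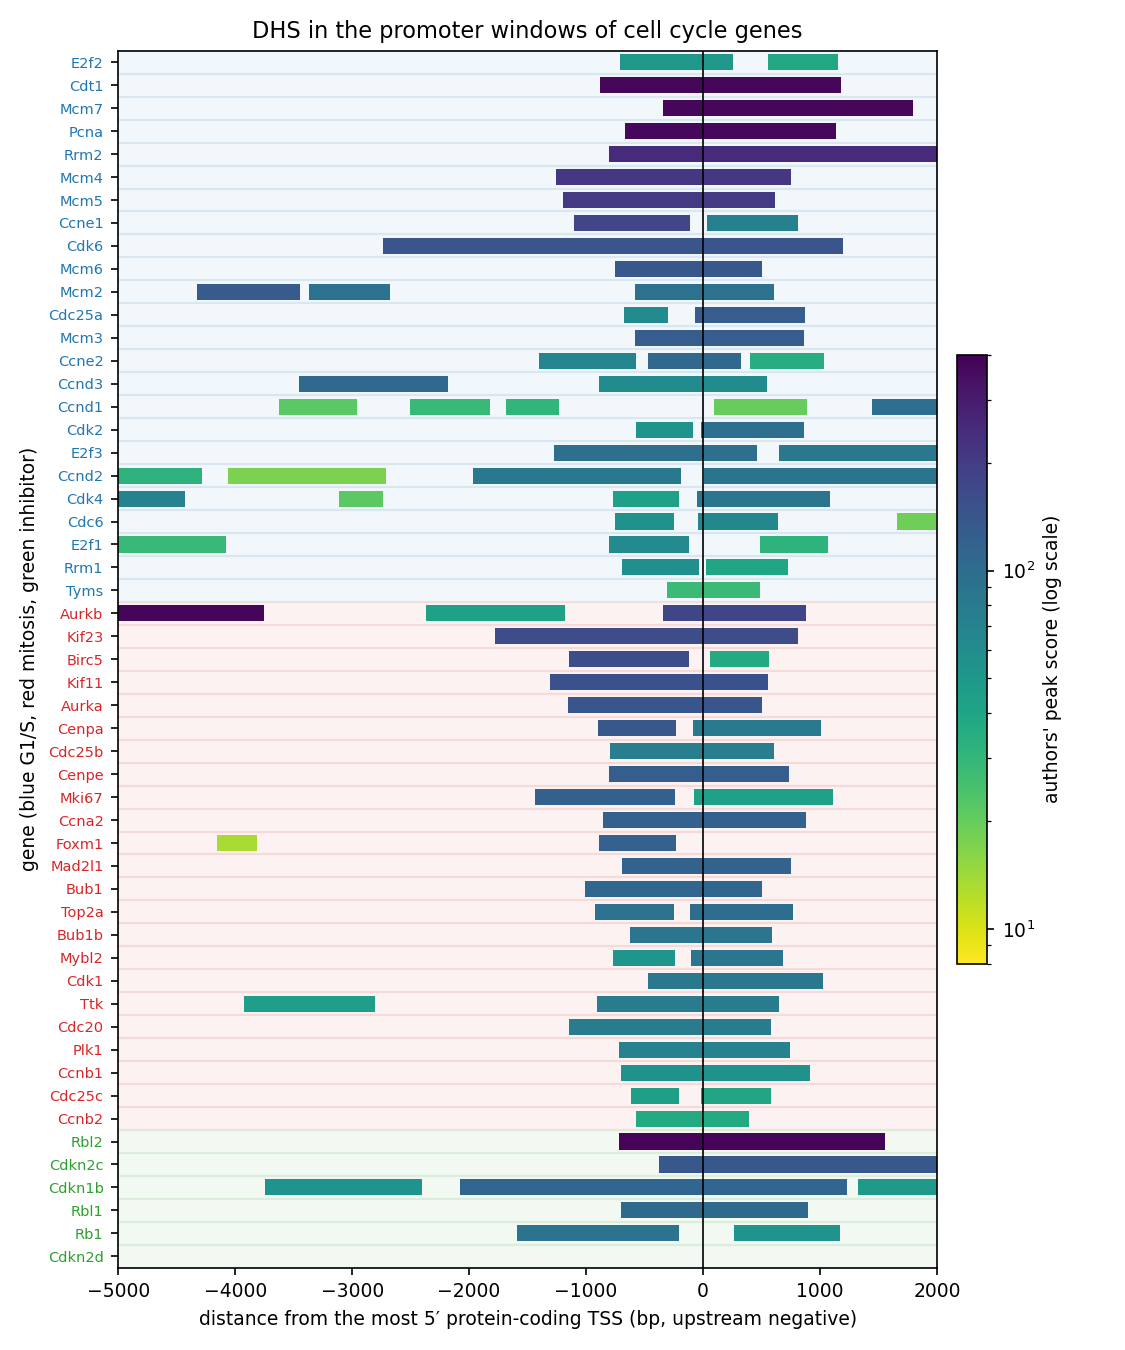
DHS of the 53 members from 5 kb upstream to 2 kb downstream of the most 5′ protein-coding TSS (x axis, bp, direction of transcription to the right), coloured by peak score on a log scale and ordered by class and top score. Mitosis genes mostly show 1 block around the TSS, while several G1/S genes show more blocks, and Cdkn2d is empty. DHS at TSSs farther inside a gene, such as that of 399 at E2f2, lie outside the range drawn.

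A recurrent shape was a pair of DHS with a narrow gap close to the TSS. Pairs less than 500 bp apart within 1 kb of a TSS were found at 18 of 53 members (34.0%, interval 21.5 to 48.3%), against 27.5% of CpG-rich genes, which lies inside that interval, and 15.6% of all protein-coding genes. They were found at 10 of 24 G1/S genes, 7 of 23 mitosis genes and 1 of 6 inhibitors (Rb1). At 7 members a TSS lay in the gap itself (Ccnd2, Ccne1, Ccne2, Rrm1, Birc5, Cenpa and Rb1). That was 13.2% of members, close to the 11.7% of CpG-rich genes, against 6.2% of all protein-coding genes. The 7 included 3 of the 5 members with a DHS but no covered TSS, namely Ccnd2, Rrm1 and Rb1. At E2f1 the DHS on either side of the start region were more than 500 bp apart. The cause of the gaps was not tested.

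The second question was what else the accessible promoters of each class share. Words were searched on both strands from 250 bases before to 50 after the most 5′ protein-coding TSS, in the members and in every protein-coding gene. An E2F word (TTTGGCGC or TTTCGCGC) was present at 8 of 24 G1/S genes (33.3%, interval 15.6 to 55.3%) and at 1 of 23 mitosis genes (4.35%), against 1.70% of CpG-rich and 1.03% of all protein-coding promoters. The 8 were Cdc25a, E2f1, E2f2, Cdc6, Cdt1, Mcm3, Mcm5 and Mcm6. Elsewhere the word was found at Cdk1 and at Rbl1. In Mcm5 and Mcm6, printed above, words on opposite strands overlapped. All 4 matches of TTTCGCGC and 7 of 9 matches of TTTGGCGC lay inside a DHS. The E2F count depended on the bounds searched. From 50 bases before to 50 after the TSS it was 4 of 24 G1/S genes and 0 of 23 mitosis genes. The share there was 0.62% of CpG-rich and 0.41% of all protein-coding promoters. From 500 before to 100 after, the counts were 9 of 24 and 1 of 23, against 2.87% and 1.66% of those promoters.

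The CHR word (TTTGAA) was more frequent at mitosis genes. It was present at 15 of 23 mitosis genes (65.2%, interval 42.7 to 83.6%), 2 of 24 G1/S genes (Ccnd2 and Mcm2) and 1 of 6 inhibitors (Rbl2), against 9.57% of CpG-rich and 21.4% of CpG-poor protein-coding promoters. Both CpG-rich mitosis genes (8 of 13) and CpG-poor ones (7 of 10) held it. All 15 also held a CCAAT box, and the pair occurred at 1 of 24 G1/S genes (Mcm2), 4.03% of CpG-rich and 8.75% of CpG-poor promoters. The 15 were Ccnb2, Cdk1, Cdc25c, Foxm1, Plk1, Aurka, Aurkb, Bub1b, Ttk, Cdc20, Kif11, Kif23, Cenpa, Top2a and Mki67. Within 50 bases of the TSS on either side, a range chosen after the positions were seen, 13 of the 23 mitosis genes held TTTGAA, against 0 of 24 G1/S genes (upper bound 14.2%), 2.36% of CpG-rich and 5.36% of CpG-poor promoters. The contrast was smaller from 500 bases before to 100 after the TSS. There TTTGAA was at 17 of 23 mitosis genes (interval 51.6 to 89.8%), 9 of 24 G1/S genes (18.8 to 59.4%) and 3 of 6 inhibitors, against 24.4% of CpG-rich and 40.9% of CpG-poor promoters. With a CCAAT box it was then at 15 of 23 mitosis genes and 6 of 24 G1/S genes, against 13.8% and 25.5% of those promoters. Of 22 matches of the word in members, 16 lay inside a DHS, and 5 of the other 6 lay in the gap of a pair of DHS. Other words lay inside DHS about as often, with 48 of 69 matches for CCAAT boxes and 68 of 100 for GC boxes. Matches of other words outside DHS also lay in such gaps, 15 of 21 for CCAAT boxes and 19 of 32 for GC boxes. For TTTGGCGC it was 0 of 2.

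CCAAT boxes alone were more widespread, at 19 of 23 mitosis genes (82.6%) and 13 of 24 G1/S genes (54.2%), against 36.4% of CpG-rich promoters. GC boxes (GGGCGG) were at 91.3% of mitosis and 70.8% of G1/S promoters, against 71.7% of CpG-rich, 22.3% of CpG-poor and 44.0% of all protein-coding promoters. They were at 9 of the 10 CpG-poor mitosis genes (interval 55.5 to 99.7%). Among the 75 other cell cycle genes, E2F words were at 8.00%, TTTGAA at 26.7% and CCAAT at 61.3%. A word is a run of letters and not a bound site, and these letters are only part of what E2F and CHR-binding complexes recognise. DHS scores of members with and without a word were not compared.

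**Figure D4:**
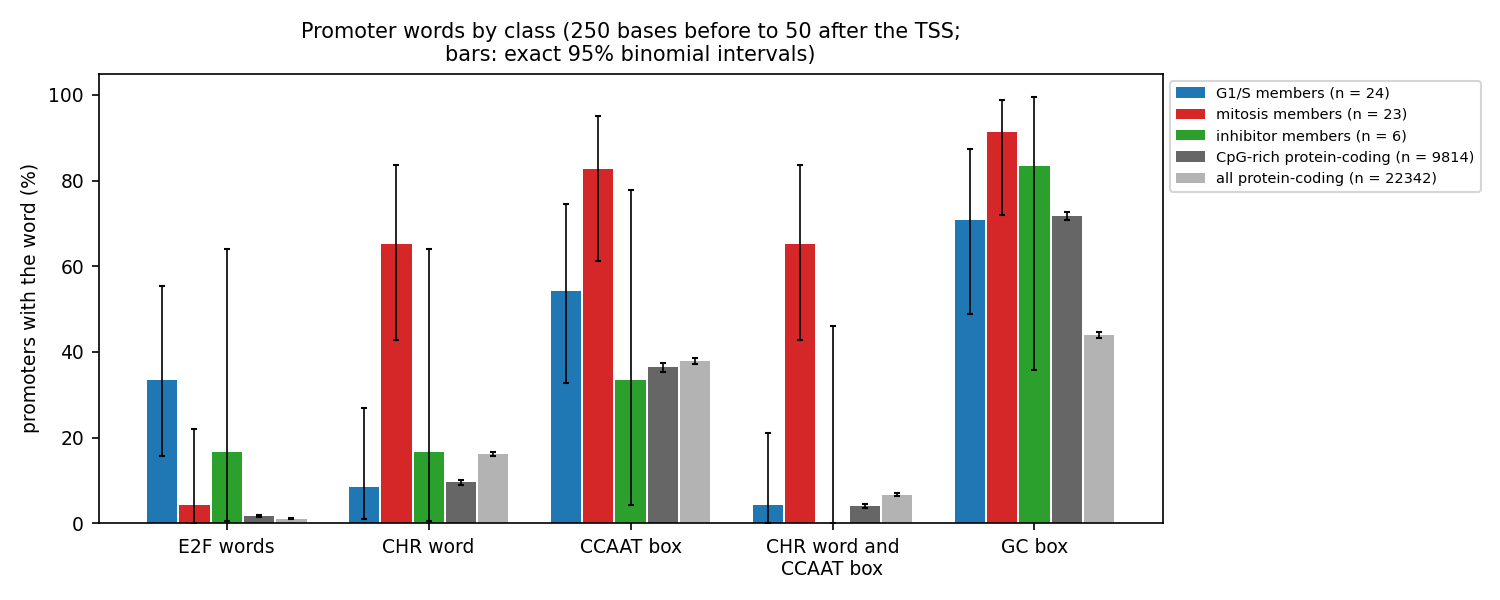
Share of promoters (%) that hold each word on either strand, from 250 bases before to 50 after the most 5′ protein-coding TSS, for the 3 classes of members and for protein-coding genes. Error bars are exact 95% binomial intervals. E2F words stand out at G1/S genes (33.3%) and the CHR word with a CCAAT box at mitosis genes (65.2%), and GC boxes are less frequent among all protein-coding genes (44.0%) than in the other groups drawn.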

How the data were processed

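The authors digested nuclei of 1 population of mock-treated splenic B cells with DNase I and chose among several enzyme concentrations by qPCR signal-to-noise. They sequenced the fragments and called peaks. The submitters' processing notes name BWA 0.6.2, SAMtools and the build mm9. The study gives a version and a threshold of MACS for its ChIP-seq peaks. Whether these also hold for the DNaseI library, and whether the input library served in peak calling, is not given in the sources used here. Peak positions were deposited with a score, the authors' own value of unstated scale, and 1 peak passed the end of chromosome 19 by 52 bp.

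The 47474 peaks on chromosomes 1 to 19 and X were intersected, with at least 1 bp of overlap, with windows of 5 kb upstream to 2 kb downstream of every TSS in GENCODE M1, the same build. Sequence came from the NCBI build 37 genome. Python 3.11.15, pandas 2.3.3, scipy 1.17.1 and pysam 0.24.0 were used, and the scripts were tested on simulated data. Intervals of medians come from order statistics. Of 22350 protein-coding genes, 8 had no protein-coding transcript TSS and gave no promoter words. The members were given by name. The members, the further lists and the rules were chosen with earlier results of these data known. Members were named in full when they had no promoter DHS or no covered TSS, at least 4 DHS, or a top score among the 3 highest or lowest of their class, or belonged to the D cyclin, Cdk4 and Cdk6, activator E2F, Mcm or pocket protein families. Samples were grouped by their titles. With 1 DNaseI library and no depth, no test between groups was made. Alternatives were a score at or above the median, a window of 1 kb on each side, the most 5′ TSS only, peaks nearest to the gene itself, and other bounds for CpG classes and words. Some marker genes and a promoter sequence are not reported here.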

Additional observations from a re-analysis of the deposited data

How the results depend on the processing

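The share of members with a promoter DHS stayed between 96.2% and 98.1% under each alternative tried except when only DHS nearest to the gene itself were counted (92.5%), where Mcm4, Foxm1 and Aurka lost theirs. With only DHS at or above the median score, Tyms lost its DHS. Their median top score stayed between 109.7 and 119.7. Within 1 kb of a TSS the median covered length of members was 1594 bp, against 1940 bp in the full window, since the window is shorter.

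The shares of comparison genes moved as well. Of all protein-coding genes, 50.3% had a promoter DHS at or above the median score, 53.7% one within 1 kb, 54.7% one at the most 5′ TSS and 51.6% one nearest to the gene itself. For CpG-rich genes the shares were 78.7%, 84.0% and 78.0% with the median score, the 1 kb window and nearest DHS, and their median top score became 119.5 with the score limit and 106.0 with nearest DHS. Of CpG-poor genes, 75.3% had a DHS at a CpG ratio of at least 0.5. Of the other cell cycle genes, 92.0% kept a DHS when it had to be nearest to the gene itself. TTTGAA was at 54.7% of members' promoters from 500 bases before to 100 after the TSS, where G1/S genes rose from 2 to 9 of 24 and mitosis genes from 15 to 17 of 23. From 50 before to 50 after, TTTCGCGC was at 1.89% of members' promoters, CCAAT at 35.8% and GGGCGG at 47.2%. The shares of CpG-rich promoters at these bounds were 0.265%, 13.3% and 47.0%, so GC boxes matched that class. Those of all protein-coding promoters were 0.148%, 13.5% and 27.65%.

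No paired analysis was possible because there was 1 DNaseI library and no second group. Depth is unknown, and the spread between libraries could not be measured.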
